A study of Jaltomata procumbens and Jaltomata herrerae with 23 samples.

Results

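The transcripts of floral nectaries of Jaltomata procumbens were compared after nectar secretion had ended and before it began. The following groups of libraries were set against each other across all loci of the deposited table: post-secretory nectary (libraries B and C, dissected once the petals had been shed) and pre-secretory nectary (libraries B, C and D, dissected 24 to 48 h ahead of anthesis). These are 5 of the 23 libraries of the series. All plants were grown in soil with daytime highs near 25 °C and night lows near 15 °C, nectaries were cut out by hand, and the labels give no mutation, transgene or treatment for any group. Nectaries of the same species at full anthesis, 3 to 6 h after dawn (secretory A and B), and its fully expanded leaves (B and C) give reference levels, and post-secretory A, B and C and pre-secretory A, B and C of Jaltomata herrerae give the other species. The labels do not say that libraries came from separate plants, so p-values measure the spread between these samples only.

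The 5 libraries were chosen by their profiles over all loci. Post-secretory A correlated at r = 0.981 with procumbens secretory nectary and at 0.835 with its own group, and pre-secretory A at 0.892 with herrerae leaf and at 0.465 with its own group. Both were left out, as was leaf A, which correlated at 0.971 with procumbens post-secretory nectary and at 0.713 with the other leaves. Since the same values served for this choice and for the tests, the p-values do not account for it, and counts with all labelled libraries are given as well. Pre-secretory C was kept although its r with the secretory group (0.959) exceeded that with its own (0.908). The latter is with the mean of the other labelled pre-secretory libraries, A included. With pre-secretory B and D singly it correlated at 0.957 and 0.914. Among the 5 libraries, post-secretory B and C correlated at 0.939, pairs of pre-secretory libraries at 0.914 to 0.968, and pairs across the groups at 0.76 to 0.846.

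A nectary is a gland that loads, synthesises and exports sugar. In Arabidopsis thaliana, sucrose phosphate synthases make sucrose in the nectary, the transporter SWEET9 releases it, and a cell wall invertase (CWINV4) splits it outside the cell, while the transcription factor CRC is needed for the gland to form and MYB21 and MYB24 act with jasmonate in late flower development. Once a flower has been pollinated or aged, its parts can be shed, dismantled so that their nitrogen is reused, or kept as part of the growing fruit. The table names each row by an Arabidopsis locus, so gene names and roles below are those of the Arabidopsis gene, and members of gene families with near-identical copies cannot be told apart with confidence.

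Levels are TPM as deposited, in whole numbers, where TPM scales the reads of a gene by transcript length and by the library's total. A change is the difference between the group means of log2(TPM + 1), post-secretory minus pre-secretory, after rescaling each library by its median ratio, and it understates the change of low genes. A locus was called when limma's Benjamini-Hochberg adjusted p was under 0.05 over all 13075 loci tested. By this rule 2456 loci rose (18.8%) and 1875 fell (14.3%) in post-secretory nectary, and the median change of all loci was 0.00. The libraries of the groups did not overlap, in either direction, at 40.4% of loci. Many of the list genes named below were picked among called members that did not overlap, so for them this adds no support. The changes were often large: 1742 of the higher and 960 of the lower loci moved by at least 1 on the log2 scale, and 312 and 38 by at least 3.

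The count depended on the libraries. It was 4331 in all, 2675 without post-secretory B, 4596 without pre-secretory C, and 354 (2.71% of 13080 loci) with all 23 libraries as labelled. All but 2 of those 354 were also among the 4331, in the same direction. Of the list members described below, 363 passed in the comparison and 34 with all labelled libraries. None of those 34 was in the SWEET, sucrose cleavage, starch, primary wall, gibberellin, carbonic anhydrase, endoplasmic reticulum folding or ribosomal lists. The trehalose, nitrogen, proline, abscisic acid, cytokinin, shedding and terpenoid lists had 1 higher each, the ethylene list 2 higher and the phenylpropanoid list 1 lower. On the TPM as deposited, without rescaling, the median of all loci was 0.14, and 72.4% of 3229 called loci were higher, against 56.7% of the 4331 after rescaling. The TPM table carries no read depth, so no counting error can be given for single values.

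The secretory libraries show when the changes fell. Of the loci that rose, 1681 (68.4%) had a secretory mean nearer the pre-secretory than the post-secretory mean, so that most of the difference lay after secretion. Of those that fell, 1015 (54.1%) were nearer pre-secretory and 860 nearer post-secretory. The post-secretory libraries also differed from each other: 330 of the loci that rose were more than 1 log2 unit higher in B than in C, and 74 were higher in C.

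**Figure D1:**
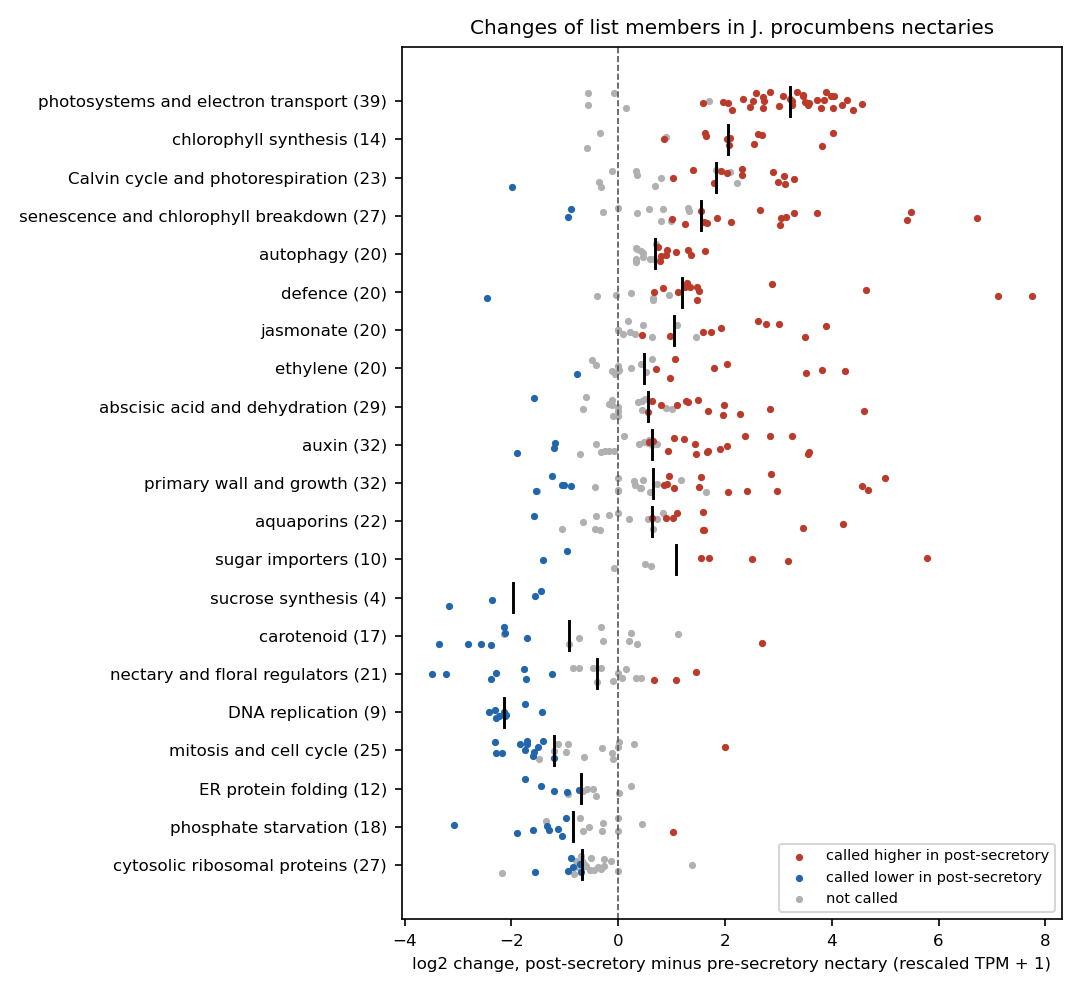
Each point is a member of a gene list, placed by its log2 change (post-secretory minus pre-secretory J. procumbens nectary, rescaled TPM + 1). Red and blue points passed the test as higher and lower in post-secretory nectary, grey points did not, the bar is the list's median, the dashed line the median of all loci, and the number of members tested stands beside each list. Photosystem members lie mostly to the right, and all 9 DNA replication members to the left.

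All 4 sucrose synthesis genes fell (median -1.96, against 0.00 over all loci), 3 of them without post-secretory C and 1 with all labelled libraries. SPS3F (AT1G04920), a sucrose phosphate synthase, had 12 and 5 TPM in post-secretory B and C, against 100, 86 and 49 TPM in pre-secretory B, C and D (log2 change -3.17, SE 0.38, adjusted p = 1.79e-05). The groups did not overlap. SPS1F (AT5G20280), another sucrose phosphate synthase, had 60 and 42 TPM in post-secretory nectary, against 142, 166 and 81 TPM in pre-secretory nectary (-1.44, SE 0.35, adjusted p = 0.00538, or 0.0607 without post-secretory C). SPP2 (AT2G35840), a sucrose phosphate phosphatase that completes the synthesis, had 49 and 47 TPM against 176, 183 and 66 TPM in pre-secretory nectary. In secretory nectary SPS3F stood at 73 and 71 TPM and SPP2 at 137 and 135 TPM. SPS4F (AT4G10120), of the same enzyme family as SPS3F, was listed at 0 in both post-secretory and both secretory libraries, against 6 TPM in each pre-secretory library (adjusted p = 0.00564), and was the one that passed with all labelled libraries (0.0278).

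SWEET9 (AT2G39060), the sucrose exporter of Arabidopsis nectaries, had 3656 and 806 TPM in post-secretory B and C, against 16197, 26019 and 2904 TPM in pre-secretory B, C and D. Post-secretory B lay above pre-secretory D, so the groups overlapped, although SWEET9 passed (log2 change -2.80, SE 0.81, adjusted p = 0.0146). The call was lost without pre-secretory B (0.0533), pre-secretory C (0.0522) or post-secretory C (0.206), and with all labelled libraries the change was 0.16. SWEET9 was still far above leaf, where it had 28 and 11 TPM.

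The SWEET sugar exporters moved both ways, with 2 of 12 higher and 3 lower, SWEET9 among the lower (1 and 2 without post-secretory C). These shares are 16.7% and 25%, against 18.8% and 14.3% of all loci. SWEET7 (AT4G10850) had 22 and 52 TPM in post-secretory nectary, against 524, 422 and 656 TPM in pre-secretory nectary (-4.05, SE 0.37, adjusted p = 1.93e-06). Its level in secretory nectary was 41 and 42 TPM, near the post-secretory one, whereas SWEET9 was at 28548 and 36418 TPM there. SWEET10 (AT5G50790), by contrast, had 45 and 66 TPM against 6, 7 and 5 TPM in pre-secretory nectary (2.76, SE 0.57, adjusted p = 0.0015).

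Of 14 sucrose-cleaving enzymes, 2 fell (14.3%, the same share as over all loci) and none rose (1 fell without post-secretory B). CWINV2 (AT3G52600), a cell wall invertase, had 212 and 71 TPM in post-secretory nectary, against 1969, 1997 and 860 TPM in pre-secretory nectary (-3.75, SE 0.50, adjusted p = 4.13e-05). The groups did not overlap, and secretory nectary held 1606 and 1626 TPM. CWINV4 (AT2G36190), the invertase known from Arabidopsis nectaries, had 392 and 98 TPM against 1402, 2404 and 6 TPM in pre-secretory nectary and did not pass (adjusted p = 0.831, or 0.053 without pre-secretory D). Pre-secretory D was the low library here, as it was for SWEET9.

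Genes of the sugar importer list rose more often than they fell, with 5 of 10 higher and 2 lower (median 1.09). With all labelled libraries 1 was higher and 1 lower, and fewer than in the comparison passed without post-secretory B. The list also holds carriers of the vacuole membrane, which do not take sugar into the cell. PMT5 (AT3G18830), a polyol and monosaccharide importer, had 589 and 453 TPM in post-secretory nectary, against 8, 6 and 7 TPM in pre-secretory nectary (5.78, SE 0.35, adjusted p = 1.17e-07). It stood at 5 and 12 TPM in secretory nectary and 15 and 11 TPM in leaf, far below the post-secretory level. The hexose importer STP1 (AT1G11260) had 57 and 25 TPM against 5, 3 and 7 TPM (2.51, adjusted p = 0.00238, or 0.0537 without post-secretory B). SUC4 (AT1G09960), a sucrose transporter of the vacuole membrane, had 16 and 17 TPM against 4, 5 and 2 TPM, and passed with all labelled libraries too (adjusted p = 0.0212).

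Starch genes showed no common direction: 3 of 19 synthesis genes rose and 3 fell, and 5 of 20 breakdown genes rose and 3 fell. The medians were 0.09 and -0.03. These shares (15.8% and 15.8% for synthesis, 25% and 15% for breakdown) were near the 18.8% and 14.3% of all loci. Without pre-secretory B, pre-secretory D, post-secretory B or post-secretory C, 2 breakdown genes rose, and without post-secretory B no breakdown gene fell, 5 synthesis genes rose and 1 fell. GBSS1 (AT1G32900), which makes amylose, had 393 and 304 TPM in post-secretory nectary, against 99, 72 and 79 TPM in pre-secretory nectary (1.89, SE 0.34, adjusted p = 0.000515). The chloroplast beta-amylase BAM1 (AT3G23920) had 72 and 58 TPM against 27, 118 and 30 TPM and did not pass (adjusted p = 0.714, or 0.0424 and higher without pre-secretory C), while it held 339 and 278 TPM in secretory nectary. In the trehalose and SnRK1 list, which covers sugar signalling, 5 of 21 rose and 3 fell, with 2 higher without post-secretory B. The shares of this list were 23.8% and 14.3%, against 18.8% and 14.3% of all loci. TPPF (AT4G12430), a trehalose phosphate phosphatase, had 30 and 9 TPM against 354, 295 and 260 TPM (-4.20, SE 0.47, adjusted p = 9.94e-06). TPS11 (AT2G18700), a trehalose phosphate synthase family member, had 106 and 96 TPM against 3, 9 and 7 TPM (3.64, SE 0.58, adjusted p = 0.0002).

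Regulators of nectary and flower identity fell more often than they rose, with 7 of 21 lower and 3 higher (median -0.39). Without post-secretory B 4 were lower, without post-secretory C 1 was higher, and with all labelled libraries none passed. CRC (AT1G69180) had 421 and 156 TPM in post-secretory nectary, against 1089, 1627 and 968 TPM in pre-secretory nectary (-2.38, SE 0.43, adjusted p = 0.000566). Its level in leaf was 5 and 4 TPM, so the post-secretory tissue still carried this nectary marker. With all labelled libraries CRC changed by 0.76 and did not pass (adjusted p = 0.849), since post-secretory A held 1933 TPM and pre-secretory A 2 TPM.

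MYB24 (AT5G40350) had 110 and 19 TPM in post-secretory nectary, against 564, 783 and 251 TPM in pre-secretory nectary (-3.49, SE 0.67, adjusted p = 0.000876). MYB21 (AT3G27810) had 1 and 0 TPM against 21, 18 and 10 TPM (-3.22, SE 0.42, adjusted p = 3.79e-05). Neither gene overlapped between the groups. AG (AT4G18960), the regulator of stamen and carpel identity, had 3 and 6 TPM against 15, 28 and 35 TPM (-2.29, adjusted p = 0.00756, or 0.0889 without post-secretory B), and YAB5 (AT2G26580) had 138 and 207 TPM against 491, 610 and 466 TPM (-1.77, adjusted p = 0.000298). AP2 (AT4G36920) and ARF6 (AT1G30330) rose, the first at 47 and 67 TPM against 14, 30 and 12 TPM and the second at 168 and 187 TPM against 102, 81 and 115 TPM. The AP2 call was lost without post-secretory C (adjusted p = 0.0712).

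**Figure D2:**
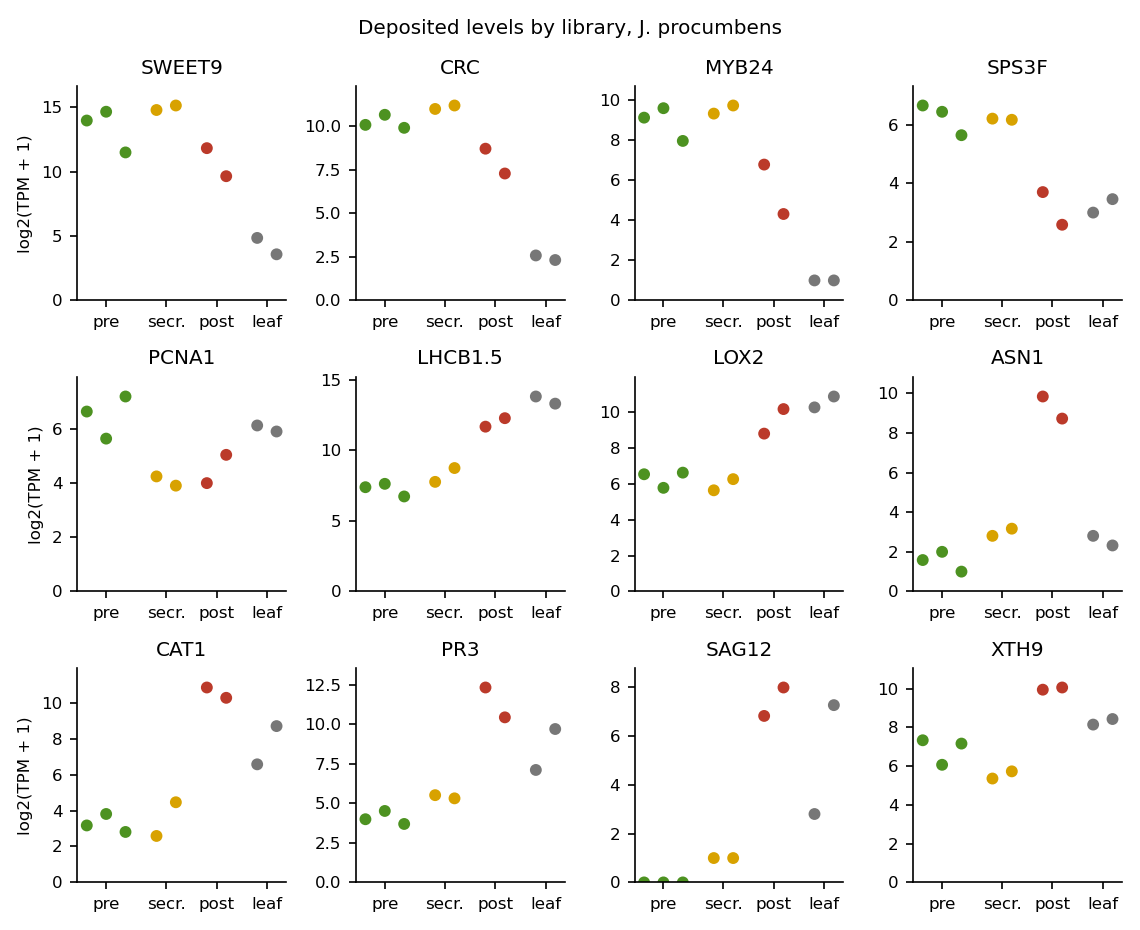
Deposited level, as log2(TPM + 1), of 12 genes in each J. procumbens library, with pre-secretory B, C and D (green), secretory A and B (yellow), post-secretory B and C (red) and leaf B and C (grey) from left to right. SWEET9, CRC, MYB24 and SPS3F drop after secretion, PCNA1 is already low in secretory nectary, and ASN1, CAT1 and PR3 are high in both post-secretory libraries.

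Carotenoid genes, which make and break pigments that can colour petals, had 7 of 17 lower and 1 higher (median -0.92). Without post-secretory C 4 were lower, and with all labelled libraries none of the 17 passed. CRTISO (AT1G06820), the carotenoid isomerase, had 24 and 14 TPM in post-secretory nectary, against 255, 271 and 85 TPM in pre-secretory nectary (-3.35, SE 0.65, adjusted p = 0.000992). The desaturases ZDS (AT3G04870) and PDS (AT4G14210) fell by 2.38 and 2.13 on the log2 scale. Phytoene synthase (PSY, AT5G17230), the first enzyme of the pathway, had 36 and 33 TPM against 7, 49 and 6 TPM and did not pass (adjusted p = 0.212). Without pre-secretory C it was called higher (2.08, adjusted p = 0.00134). LCYE (AT5G57030), which directs the pathway to the lutein of chloroplasts, had 28 and 27 TPM against 2, 2 and 4 TPM (2.70, SE 0.58, adjusted p = 0.00214).

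The cleavage enzyme CCD1 (AT3G63520) had 339 and 121 TPM in post-secretory nectary, against 1639, 2004 and 386 TPM in pre-secretory nectary (-2.57, adjusted p = 0.00575, or 0.0924 without post-secretory C). Pre-secretory D was again the lowest of its group. The summed level of the carotenoid list was 946 and 568 TPM in post-secretory B and C, against 3799, 4538 and 1296 TPM in pre-secretory B, C and D.

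Genes of the photosynthetic machinery rose together. Of 39 nuclear genes for photosystems and electron transport, 34 rose and none fell (median 3.21). The count was 34 without post-secretory B or without pre-secretory C, 30 without post-secretory C, and 0 with all labelled libraries, where pre-secretory A held a summed 106189 TPM of this list. LHCB1.5 (AT2G34420), a light-harvesting protein of photosystem II, had 3263 and 4952 TPM in post-secretory nectary, against 166, 196 and 105 TPM in pre-secretory nectary (4.56, SE 1.00, adjusted p = 0.00246). LHCB1.1 (AT1G29920) had 834 and 1232 TPM against 51, 35 and 40 TPM, and LHCB3 (AT5G54270) had 474 and 784 TPM against 33, 27 and 26 TPM. The groups were far apart for all 3, and post-secretory C was the higher library each time.

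Chlorophyll synthesis followed, with 11 of 14 higher and none lower (median 2.05), 8 without post-secretory C and 0 with all labelled libraries. PORB (AT4G27440), the light-dependent protochlorophyllide reductase, had 449 and 526 TPM in post-secretory nectary, against 22, 27 and 27 TPM in pre-secretory nectary (4.03, SE 0.55, adjusted p = 4.96e-05). PORA (AT5G54190) had 55 and 41 TPM against 2, 2 and 1 TPM. CHLH (AT5G13630), a subunit of magnesium chelatase at the entry to the chlorophyll branch, had 17 and 24 TPM against 3, 1 and 2 TPM (2.55, SE 0.39, adjusted p = 0.000136).

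The Calvin cycle and photorespiration list had 12 of 23 higher and 1 lower (median 1.83), with 4 higher without post-secretory C and 0 with all labelled libraries. GOX1 (AT3G14420), a glycolate oxidase of photorespiration, had 257 and 180 TPM in post-secretory nectary, against 18, 21 and 16 TPM in pre-secretory nectary (3.3, SE 0.46, adjusted p = 6.38e-05). PRK (AT1G32060), which makes the substrate of Rubisco, had 29 and 29 TPM against 2, 2 and 2 TPM (2.99, SE 0.72, adjusted p = 0.00472). TKL1 (AT3G60750), a transketolase, was the member that fell, at 91 and 118 TPM against 410, 331 and 378 TPM (-1.99, SE 0.30, adjusted p = 0.000129).

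Levels of the photosystem and Calvin cycle lists stayed below those of leaf, and by unequal amounts. Relative to the mean of leaf B and C on the rescaled values, photosystem members reached a median of 9.07% in post-secretory nectary and 0.853% in pre-secretory nectary, and none was above 24.7% after secretion. Calvin cycle members reached a median of 3.77% in post-secretory nectary, against 0.509% in pre-secretory nectary, with a range after secretion of 0.322 to 63.6%. Chlorophyll synthesis members reached a median of 14.7%, against 3.21% in pre-secretory nectary. Their range after secretion was 5.14 to 121%, so this list did not stay below leaf throughout. RBCS3B (AT5G38410), a small subunit of Rubisco, had 230 and 416 TPM in post-secretory nectary, against 94, 48 and 65 TPM in pre-secretory nectary, and 32526 and 21901 TPM in leaf. It passed (2.03, SE 0.63, adjusted p = 0.0216), but not without pre-secretory C (0.0532), pre-secretory D (0.0534) or post-secretory C (0.164). The part of adhering green tissue in these values was not tested, and in bulk tissue more cells of a type and more RNA per cell cannot be told apart.

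**Figure D3:**
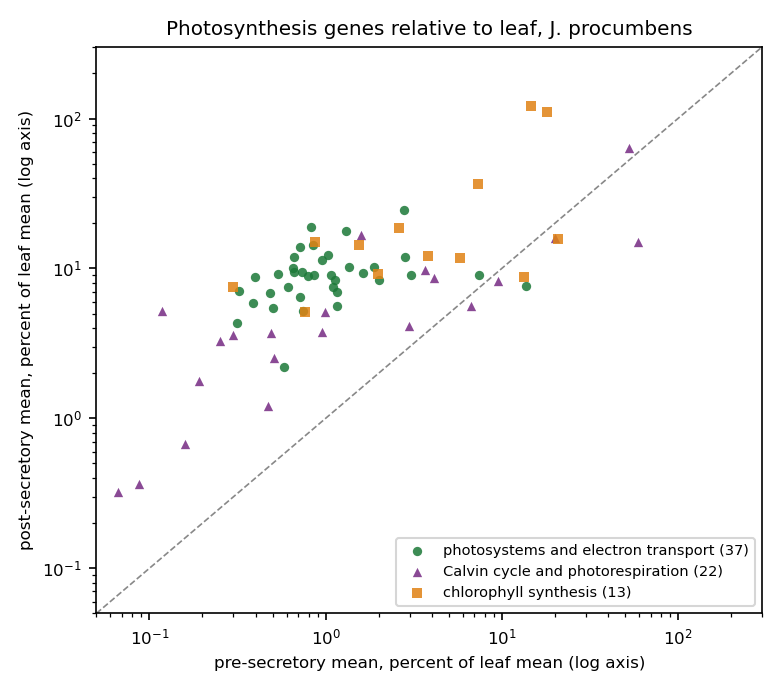
Each point is a gene of the photosystem, Calvin cycle or chlorophyll synthesis lists, placed by its mean in pre-secretory (x axis) and post-secretory (y axis) J. procumbens nectary as a percentage of its mean in leaf B and C, both on log axes, with genes at 0 in either group left out. Points above the dashed line are higher after secretion; photosystem genes gather near 10% of leaf, and Calvin cycle genes spread over a wider range.

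Genes encoded in the plastid itself did not follow the nuclear ones: of 67 rows with plastid identifiers, 1 rose and 14 fell (median -0.39; 2 fell without post-secretory B), and their summed level was 1632 and 1771 TPM in post-secretory B and C, against 1514, 1563 and 1687 TPM in pre-secretory B, C and D. The share lower was 20.9%, against 14.3% of all loci. Many plastid rows stood at a few TPM, and a few made up much of the sum. ATCG01280 had 495 and 313 TPM against 265, 314 and 242 TPM, and ATCG01240 236 and 388 TPM against 256, 250 and 214 TPM. These libraries were made from selected mRNA, and the plastid rows were grouped after their values were seen. How well these rows measure plastid transcripts was not tested. Carbonic anhydrases had 2 of 5 higher, or 1 without post-secretory C. BCA1 (AT3G01500), a plastid carbonic anhydrase, had 69 and 661 TPM in post-secretory B and C, against 3, 5 and 0 TPM in pre-secretory B, C and D (adjusted p = 0.00586, or 0.0937 without post-secretory C). Post-secretory C was the high library, and leaf held 2402 and 1598 TPM. BCA4 (AT1G70410) had 83 and 59 TPM against 6, 5 and 8 TPM (3.06, SE 0.37, adjusted p = 1.86e-05).

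**Figure D4:**
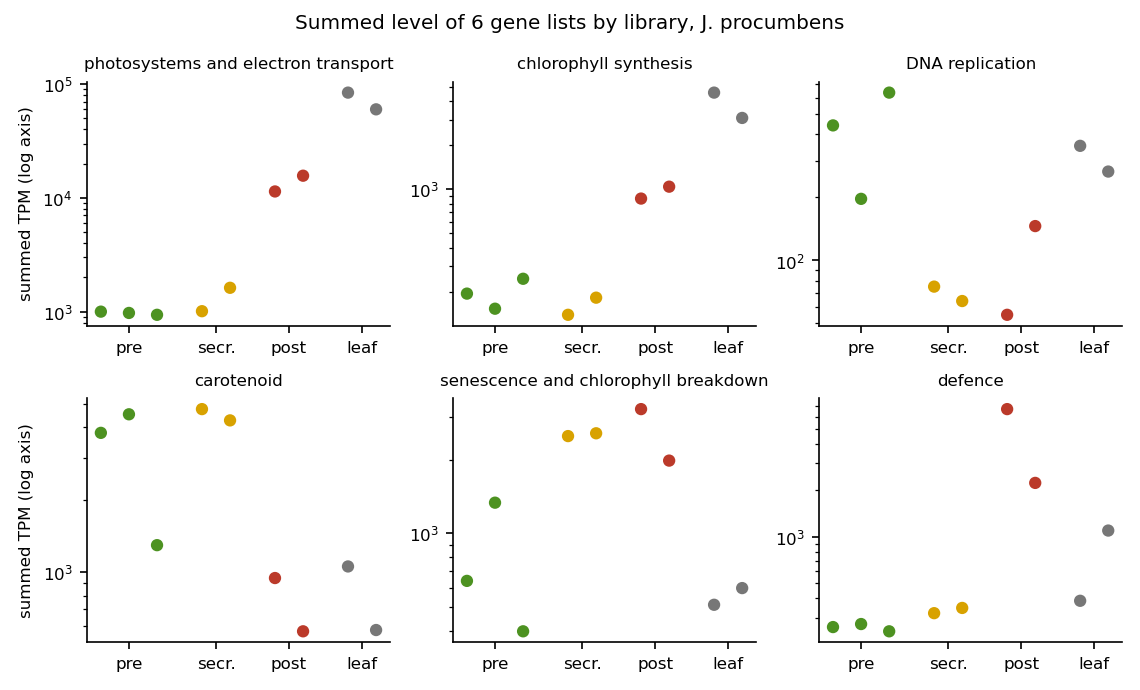
Summed deposited TPM of 6 gene lists (log axes) in each J. procumbens library, with pre-secretory B, C and D, secretory A and B, post-secretory B and C and leaf B and C from left to right. Photosystem, chlorophyll synthesis and defence sums stand apart in the post-secretory libraries, while the DNA replication sum is already low in secretory nectary.

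Senescence and chlorophyll breakdown genes rose as well, but their timing differed in part from that of chlorophyll synthesis. Of 27, 16 rose and 2 fell (median 1.55), with 18 higher without pre-secretory C, 12 without post-secretory B and 1 with all labelled libraries. The secretory mean was nearer the pre-secretory one for 10 called members and nearer the post-secretory one for 8. For chlorophyll synthesis these numbers were 10 and 1. The senescence list already summed to 2507 and 2574 TPM in secretory nectary, against 3234 and 1989 TPM after secretion. The chlorophyll synthesis list summed to 139 and 182 TPM in secretory nectary, against 865 and 1043 TPM after secretion. SAG12 (AT5G45890), a cysteine protease used as a marker of leaf senescence, had 113 and 255 TPM in post-secretory nectary and was listed at 0 in all 3 pre-secretory libraries (adjusted p = 0.0016). WRKY6 (AT1G62300), a senescence-linked transcription factor, had 126 and 36 TPM and was also listed at 0 in all 3 (adjusted p = 3.38e-07). NAP (AT1G69490), a NAC factor that drives leaf senescence, had 223 and 113 TPM against 0, 13 and 0 TPM (adjusted p = 0.00117). Pre-secretory C was the highest of its group for NAP, and secretory nectary held 19 and 35 TPM.

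The chlorophyll breakdown enzymes PPH (AT5G13800) and PAO (AT3G44880) rose by 2.66 and 1.60, the first at 75 and 72 TPM against 8, 18 and 5 TPM and the second at 52 and 36 TPM against 10, 18 and 9 TPM. Autophagy genes, whose products carry cell contents to the vacuole, had 9 of 20 higher and none lower (median 0.69), with 14 higher without pre-secretory C, 5 without post-secretory B and 0 with all labelled libraries. ATG8f (AT4G16520), a ubiquitin-like protein of the autophagosome, had 369 and 278 TPM in post-secretory nectary, against 81, 122 and 77 TPM in pre-secretory nectary (1.63, SE 0.29, adjusted p = 0.000425). For all 9 autophagy genes that rose the secretory mean was nearer the post-secretory one, whereas 33 of the 34 photosystem genes that rose were still nearer the pre-secretory one.

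Nitrogen reuse genes had 3 of 12 higher and 1 lower (25% and 8.33%, against 18.8% and 14.3% of all loci). ASN1 (AT3G47340), the dark-inducible asparagine synthetase that makes a transport form of nitrogen, had 920 and 424 TPM in post-secretory nectary, against 2, 3 and 1 TPM in pre-secretory nectary (7.37, SE 0.83, adjusted p = 1.08e-05). It was at most 8 TPM in secretory nectary and at most 6 TPM in leaf, and it passed with all labelled libraries (adjusted p = 0.0255). The cytosolic glutamine synthetase GLN1.2 (AT1G66200) had 1129 and 1160 TPM against 2116, 2188 and 1754 TPM (-0.97, adjusted p = 0.0182, lost without any 1 of pre-secretory B or C or post-secretory B or C, where it was 0.0504 to 0.101). Proline genes had 4 of 9 lower and 2 higher, with 2 lower without pre-secretory B, pre-secretory D, post-secretory B or post-secretory C. The breakdown enzyme ProDH1 (AT3G30775) had 147 and 172 TPM in post-secretory nectary, against 15, 6 and 6 TPM in pre-secretory nectary (3.89, SE 0.46, adjusted p = 1.76e-05), and the synthetic enzyme P5CS2 (AT3G55610) had 94 and 91 TPM against 186, 148 and 247 TPM (-1.18, SE 0.19, adjusted p = 0.000219). P5CDH (AT5G62530), which acts after ProDH1 in the breakdown, was lower as well, at 70 and 77 TPM against 177, 137 and 211 TPM (-1.37, SE 0.25, adjusted p = 0.000546).

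Defence genes rose in 13 of 20 cases and 1 fell (median 1.2). The count of higher members was 13 without pre-secretory C, 10 without post-secretory B and 1 with all labelled libraries. PR3 (AT3G12500), a basic chitinase, had 5181 and 1397 TPM in post-secretory nectary, against 15, 22 and 12 TPM in pre-secretory nectary (7.12, SE 0.95, adjusted p = 4.46e-05). PR4 (AT3G04720), a hevein-like chitin-binding protein, had 824 and 388 TPM against 1, 2 and 0 TPM (adjusted p = 3.55e-05). WRKY33 (AT2G38470), a pathogen-responsive transcription factor, had 125 and 39 TPM against 1, 3 and 0 TPM (adjusted p = 9.04e-06). Post-secretory B was the higher of the pair for each of them.

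Of the hormone lists, jasmonate genes had 10 of 20 higher and none lower (median 1.04), a count that stayed at 9 or more on leaving out each compared library in turn and was 1 with all labelled libraries. The early biosynthetic enzymes rose: LOX2 (AT3G45140), a chloroplast lipoxygenase, had 447 and 1157 TPM in post-secretory nectary, against 92, 54 and 98 TPM in pre-secretory nectary (3.01, SE 0.48, adjusted p = 0.0002). AOS (AT5G42650), allene oxide synthase, had 75 and 604 TPM against 10, 10 and 15 TPM (3.90, SE 0.62, adjusted p = 0.000201). Both were higher in post-secretory C, the library with the higher photosystem sum. Response genes rose as well, with MYC4 (AT4G17880), a transcription factor of the pathway, at 144 and 44 TPM against 8, 12 and 8 TPM (2.77, SE 0.34, adjusted p = 2.05e-05).

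Auxin genes had 16 of 32 higher and 3 lower (median 0.64), and 2 higher with all labelled libraries. The rapidly responding repressors IAA2 (AT3G23030) and IAA3 (AT1G04240) had 33 and 37 TPM, and 68 and 47 TPM, in post-secretory nectary, against 1, 1 and 2 TPM, and 3, 4 and 2 TPM, in pre-secretory nectary (3.58 and 3.56, adjusted p = 3.97e-05 and 1.31e-05). ARF5 (AT1G19850), an auxin response factor, had 48 and 39 TPM against 8, 6 and 5 TPM. GH3.3 (AT2G23170), which conjugates auxin to amino acids, went the other way at 2 and 2 TPM against 8, 8 and 18 TPM (-1.89, adjusted p = 0.000453).

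Ethylene genes had 8 of 20 higher and 1 lower, with 5 higher without post-secretory B. ACS6 (AT4G11280), which makes the ethylene precursor, had 73 and 54 TPM in post-secretory nectary, against 1, 3 and 1 TPM in pre-secretory nectary (4.25, SE 0.36, adjusted p = 1.1e-06), and it passed with all labelled libraries (adjusted p = 0.0367). ERF5 (AT5G47230), an ethylene response factor, had 336 and 22 TPM against 6, 4 and 3 TPM and lost its call without post-secretory B (adjusted p = 0.0807). Abscisic acid and dehydration genes had 13 of 29 higher and 1 lower, with 7 higher without post-secretory B. NCED3 (AT3G14440), the rate-limiting enzyme of stress-induced abscisic acid synthesis, had 52 and 11 TPM against 3, 4 and 3 TPM (2.28, SE 0.44, adjusted p = 0.00088), and the dehydrin ERD10 (AT1G20450) had 95 and 32 TPM against 1, 1 and 0 TPM (adjusted p = 1.06e-06). Cytokinin genes had 8 of 20 higher and 2 lower (5 higher without post-secretory B), among them the receptors AHK2 (AT5G35750), at 26 and 24 TPM against 3, 3 and 3 TPM, and AHK3 (AT1G27320), at 22 and 19 TPM against 4, 7 and 4 TPM. Gibberellin genes had 4 of 19 higher and 1 lower (21.1% and 5.26%, against 18.8% and 14.3% of all loci). The higher calls depended on post-secretory B.

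In the primary wall and growth list 13 of 32 rose and 5 fell (median 0.66), with 1 lower without pre-secretory B, 2 without post-secretory B and 3 without post-secretory C. XTH9 (AT4G03210), a xyloglucan-remodelling enzyme, had 981 and 1061 TPM in post-secretory nectary, against 160, 66 and 142 TPM in pre-secretory nectary (2.98, SE 0.34, adjusted p = 1.07e-05). Its relatives XTH24 (AT4G30270), at 97 and 38 TPM against 0, 1 and 0 TPM, and XTH32 (AT2G36870), at 66 and 222 TPM against 2, 5 and 2 TPM, rose too, whereas XTH28 (AT1G14720) fell to 52 and 29 TPM, against 140, 102 and 77 TPM in pre-secretory nectary (adjusted p = 0.0122, or 0.0508 without pre-secretory B and 0.132 without post-secretory C). Aquaporins had 9 of 22 higher and 1 lower, with 5 higher without pre-secretory B, 4 without pre-secretory D or post-secretory B, and 3 with all labelled libraries. The plasma membrane water channel PIP2;1 (AT3G53420) had 1055 and 1095 TPM against 83, 83 and 90 TPM (3.47, SE 0.35, adjusted p = 4.36e-06). The boric acid channel NIP5;1 (AT4G10380) had 154 and 147 TPM against 8, 6 and 4 TPM (4.22, SE 0.34, adjusted p = 7.19e-07) and kept its call in every fit that was run.

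Genes of organ shedding had 4 of 14 higher and 2 lower, with 2 higher without post-secretory B. IDA (AT1G68765), the peptide signal for abscission, had 45 and 2 TPM in post-secretory nectary and was listed at 0 in the 3 pre-secretory libraries (adjusted p = 0.00554, or 0.169 without post-secretory B). Its receptor-like kinase HSL2 (AT5G65710) had 11 and 11 TPM against 1, 1 and 1 TPM (2.2, SE 0.22, adjusted p = 3.78e-06). In the shedding list 28.6% rose and 14.3% fell, against 18.8% and 14.3% of all loci. Among phenylpropanoid and lignin genes 5 of 23 fell and 3 rose (21.7% and 13%). The number lower was 2 without pre-secretory B or post-secretory C, 3 without pre-secretory C and 8 without pre-secretory D. The list included CAD5 (AT4G34230), a cinnamyl alcohol dehydrogenase, at 185 and 91 TPM against 1122, 972 and 277 TPM (-2.52, adjusted p = 0.0046, or 0.0612 without post-secretory C).

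Terpenoid and scent genes had 4 of 10 higher and 1 lower (median 0.96), with 2 higher without post-secretory C. The terpene synthase row TPS24-terpene (AT3G25810) had 521 and 553 TPM in post-secretory nectary, against 7, 3 and 2 TPM in pre-secretory nectary (6.57, SE 1.13, adjusted p = 0.000375), and TPS11-terpene (AT5G44630) had 61 and 47 TPM and was listed at 0 in all 3 pre-secretory libraries (adjusted p = 1.17e-07). CAT1 (AT1G20630), a catalase that removes hydrogen peroxide, had 1838 and 1234 TPM against 8, 13 and 6 TPM (7.06, SE 0.57, adjusted p = 8.06e-07). AT4G20860, a berberine bridge enzyme-like row, had 1212 and 276 TPM against 1353, 5366 and 69 TPM and did not pass (adjusted p = 0.77, or 0.0369 and lower without pre-secretory D), while it held 10586 and 11155 TPM in secretory nectary. Outside the lists, the loci AT1G76930 and AT4G33720 rose most, the first at 1996 and 132 TPM against 0, 5 and 0 TPM and the second at 1050 and 148 TPM against 0, 3 and 0 TPM. AT3G61490 and AT5G38865 fell most, the first at 1 and 2 TPM against 162, 140 and 233 TPM and the second listed at 0 after secretion against 29, 24 and 99 TPM.

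Genes of cell proliferation fell together. All 9 DNA replication genes were lower (median -2.13), 9 without pre-secretory C, 6 without post-secretory B and 0 with all labelled libraries. PCNA1 (AT1G07370), the sliding clamp of DNA polymerase, had 15 and 32 TPM in post-secretory nectary, against 99, 49 and 146 TPM in pre-secretory nectary (-2.10, SE 0.40, adjusted p = 0.000872). MCM7 (AT4G02060), a subunit of the replicative helicase, had 2 and 9 TPM against 36, 14 and 44 TPM (-2.42, SE 0.48, adjusted p = 0.00126). Secretory nectary was as low, with PCNA1 at 18 and 14 TPM, and the secretory mean was nearer the post-secretory mean for all 9.

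In the mitosis and cell cycle list 12 of 25 fell and 1 rose (median -1.21). The number lower was 5 without pre-secretory B, 3 without pre-secretory D, 2 without post-secretory B and 1 with all labelled libraries. CDC20.1 (AT4G33270), an activator of the anaphase-promoting complex, had 6 and 17 TPM in post-secretory nectary, against 58, 24 and 94 TPM in pre-secretory nectary (-2.30, SE 0.46, adjusted p = 0.0012). CYCB1;2 (AT5G06150), a mitotic cyclin, had 2 and 10 TPM against 32, 8 and 57 TPM, so that pre-secretory C lay within the post-secretory range. Its call (adjusted p = 0.025) was lost without pre-secretory B (0.0737), pre-secretory D (0.0956) or post-secretory B (0.308). CYCD1;1 (AT1G70210), a D-type cyclin, was the member that rose, at 55 and 29 TPM against 11, 6 and 7 TPM (2.01, SE 0.36, adjusted p = 0.000454). Pre-secretory C, the library nearest the secretory group, was the lowest pre-secretory library for PCNA1, MCM7, CDC20.1 and CYCB1;2.

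Protein folding in the endoplasmic reticulum had 5 of 12 lower and none higher (median -0.69), or 3 lower without pre-secretory D and 1 without post-secretory B. Its chaperone CRT1 (AT1G56340) was at 703 and 848 TPM in post-secretory nectary, against 2125, 2306 and 2591 TPM in pre-secretory nectary (-1.75, SE 0.24, adjusted p = 5.28e-05). Phosphate starvation genes had 8 of 18 lower and 1 higher (median -0.84), with 5 lower without post-secretory B, 4 without post-secretory C and 6 with all labelled libraries. GDPD2 (AT5G41080), a glycerophosphodiester phosphodiesterase, had 14 and 6 TPM against 63, 110 and 77 TPM (-3.08, SE 0.49, adjusted p = 0.000193) and kept its call in every fit that was run. The share of cytosolic ribosomal proteins that fell was 22.2%, against 14.3% of all loci. Cytosolic ribosomal proteins had 6 of 27 lower and none higher (median -0.68), but 15 lower without pre-secretory C, 4 without post-secretory C, 2 without pre-secretory B, 1 without pre-secretory D and 0 without post-secretory B.

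Markers of other cell types were summed as deposited. Pollen and anther markers (2 tested) summed to 11 and 17 TPM in post-secretory B and C, against 13, 15 and 10 TPM in pre-secretory B, C and D, and carpel and ovule markers (7 tested) to 70 and 42 TPM against 76, 35 and 93 TPM. Of the carpel markers SPT (AT4G36930) fell, at 10 and 12 TPM against 38, 18 and 66 TPM. The petal markers AP3 (AT3G54340) and PI (AT5G20240) summed to 56 and 74 TPM against 143, 97 and 145 TPM, with 5 and 8 TPM in leaf, and both fell. The AP3 call (adjusted p = 0.0271) was lost without pre-secretory B (0.0777), pre-secretory D (0.0506) or post-secretory B (0.205), and the PI call (0.0353) without pre-secretory B (0.119), pre-secretory D (0.129), post-secretory B (0.194) or post-secretory C (0.0776). Guard cell markers (4 tested) summed to 22 and 34 TPM against 43, 48 and 66 TPM, but only 1 of them was called lower and their median change was 0.08. That marker was FAMA (AT3G24140), which commits cells to the guard cell fate. It was listed at 0 in both post-secretory libraries, against 20, 21 and 52 TPM in pre-secretory nectary (adjusted p = 1.93e-06). SLAC1 was at 0 in all 5 libraries.

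Vascular markers (9 tested) summed to 61 and 55 TPM in post-secretory nectary, against 116, 77 and 139 TPM in pre-secretory nectary, with 2 higher and 4 lower, or 0 and 2 without post-secretory B. The sulphate transporter SULTR2-1 (AT5G10180) had 1 and 5 TPM against 69, 43 and 96 TPM (-4.17, SE 0.33, adjusted p = 7.19e-07). It made up most of the vascular sum in each pre-secretory library, and the median change of the list was -0.19. The phloem loader SUC2 (AT1G22710) had 23 and 14 TPM against 6, 3 and 5 TPM (adjusted p = 0.0153, or 0.155 without post-secretory B). The single trichome marker tested stood at 5 and 5 TPM against 3, 2 and 3 TPM and did not pass. The part of a changed mixture of cell types in any of these results was not tested.

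The same comparison in J. herrerae, which shares no library with this one, shows where procumbens differed. In herrerae 5047 loci passed (38.6%), of which 2816 were higher and 2231 lower. A set of 1889 loci passed in the same direction in both species, which is 43.6% of the procumbens calls and 37.4% of the herrerae calls, and 302 passed in opposite directions. Across the 13075 loci, which share libraries and are not independent, the 2 changes correlated at r = 0.379. The test of the difference itself passed at 2835 loci (21.7%), 1461 with the higher and 1374 with the lower change in procumbens, at 1288 without post-secretory B and at 299 with all labelled libraries.

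**Figure D5:**
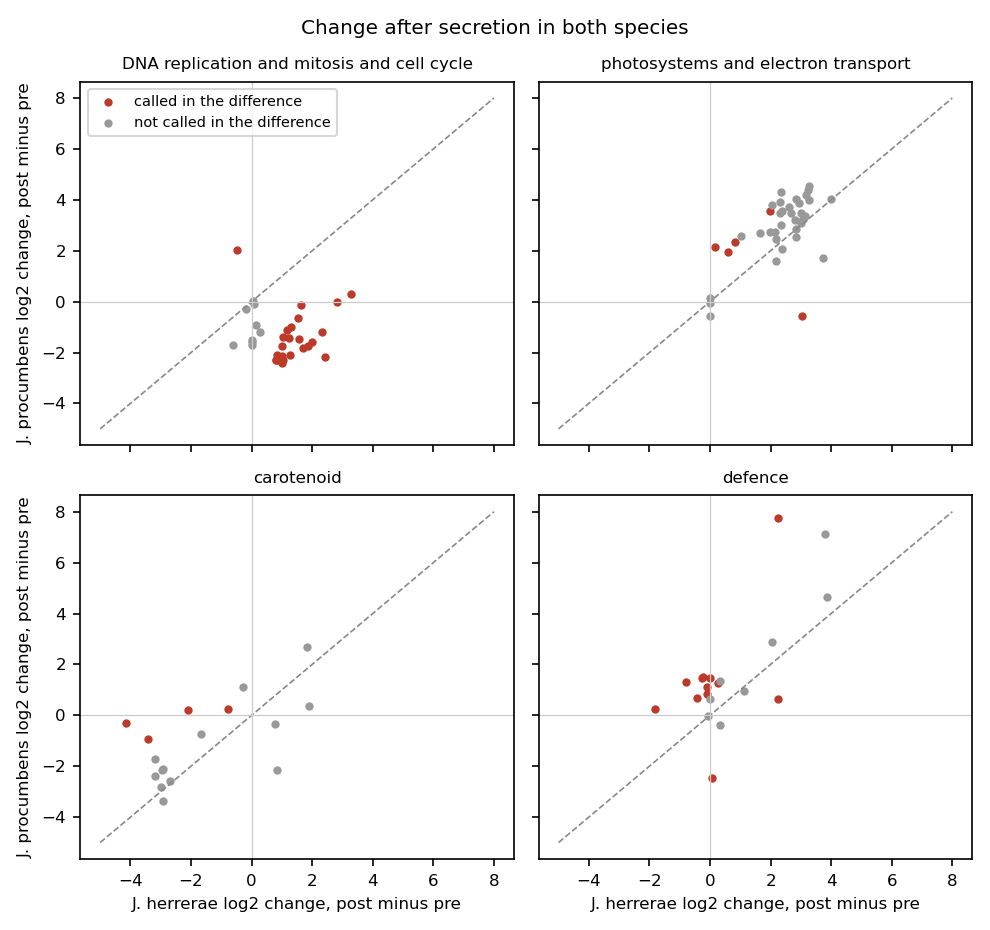
Each point is a list member, placed by its log2 change (post-secretory minus pre-secretory nectary) in J. herrerae (x axis) and J. procumbens (y axis), with red for genes that passed the test of the difference between species. Photosystem genes lie near the dashed line of equal change, while most DNA replication and cell cycle genes lie below it, with CYCD1;1 above it as an exception.

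Cell proliferation differed between the species. All 9 DNA replication genes and 15 of the 25 mitosis genes passed with the lower change in procumbens, against 10.5% of all loci. Without each of the 11 procumbens and herrerae libraries in turn, 9 replication genes and 10 to 20 mitosis genes passed, the fewest without post-secretory B. With all labelled libraries, 0 and 4 passed. The median changes in procumbens and herrerae were -2.13 and 1.00 for replication and -1.21 and 1.05 for mitosis. PCNA1 had 15 and 32 TPM in procumbens post-secretory and 99, 49 and 146 TPM in procumbens pre-secretory nectary, against 48, 74 and 95 TPM in herrerae post-secretory and 25, 27 and 13 TPM in herrerae pre-secretory nectary. The difference of the changes was -3.37 (SE 0.54, adjusted p = 0.000763), or -2.49 with all labelled libraries (0.168). For CYCB1;2 it was -4.61 (SE 0.94, adjusted p = 0.00361, or 0.106 with all labelled libraries), with 26, 34 and 26 TPM after and 5, 3 and 2 TPM before secretion in herrerae.

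Of the 39 photosystem genes 34 rose in procumbens and 32 in herrerae. The median change was 3.21 in procumbens and 2.39 in herrerae. In the difference 5 of the 39 passed, or 13 without herrerae pre-secretory B. Over all loci 21.7% passed in the difference, 11.2% with the higher change in procumbens. Carotenoid genes had 7 of 17 lower in procumbens and 12 of 17 lower in herrerae, with medians of -0.92 in procumbens and -2.69 in herrerae, and 4 of 17 passed with the higher change in procumbens (2 without procumbens post-secretory B and 2 with all labelled libraries). Defence genes had 10 of 20 with the higher change in procumbens (6 without procumbens post-secretory B), and their median change was 1.2 in procumbens and 0.03 in herrerae. Autophagy genes had 6 of 20 with the higher change in procumbens (12 without procumbens pre-secretory C, 2 without post-secretory B), at medians of 0.69 in procumbens and -0.05 in herrerae, and senescence genes had 8 of 27 (12 without procumbens pre-secretory C), at medians of 1.55 in procumbens and 0.47 in herrerae. With all labelled libraries no photosystem, defence or autophagy gene and 1 senescence gene passed in the difference. The difference was 6.39 (SE 0.77, adjusted p = 0.000131, or 0.604 with all labelled libraries) for the catalase CAT1, with 119, 113 and 125 TPM after and 39, 81 and 51 TPM before secretion in herrerae.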

How the data were processed

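RNA of hand-dissected nectaries and of leaves was sequenced from stranded mRNA libraries, paired-end on a NovaSeq, per the labels' protocols. The submitters' processing notes name kallisto 0.46.1 for quantification. In the deposited table there is 1 score per locus and library, a TPM value that the authors rounded to whole numbers. How Jaltomata transcripts were matched to Arabidopsis loci, and how their TPM were combined, is not given in the sources used here. The listed TPM of the 5 libraries sum to 726545 to 779099, with 11952 to 12287 loci at 1 TPM or more, and rounded TPM keeps no depth, so no counting interval is given.

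Each of 20 libraries was divided by its median ratio to the geometric mean over 9613 loci above 0 in all of them (1.31 to 1.64 in the 5 compared). Loci with at least 1 TPM in 2 libraries (13075 of 13170) were tested on log2(TPM + 1) with limma 3.58.1 in R 4.3.3, with 1 mean per group, a spread shared by all groups, a trended prior and Benjamini-Hochberg adjustment. Tables used Python 3.11.15 and pandas 2.3.3. Procumbens post-secretory A, pre-secretory A and leaf A entered only the fits with all 23 labelled libraries. On simulated data of 13071 loci, 56% of 100 2-fold and 90% of 100 4-fold changes were recovered, with 13 calls among unchanged loci. The changes were placed only in loci above a low level, in far fewer loci than were called here. The noise was normal with the same spread in all groups, as limma assumes. The figures therefore do not cover low loci or groups of unequal spread. Alternatives covered scaling, pseudocount, filters, the libraries fitted, array weights, replicate blocks and each library left out; leaving out herrerae libraries was added after seeing the data. The libraries, members and lists were chosen with earlier results of these data known. Genes were named by rule: 10 genes of nectar biology; per list, up to 5 called each way that did not overlap between groups and averaged at least 5 TPM in the higher group; and up to 5 each way for the species difference. Other members are named with their values where their list is described. List symbols were assigned by hand to Arabidopsis loci. Each of the 2 post-secretory letters has a pre-secretory partner, and deviations of same-lettered libraries from their group means correlated at -0.126 and -0.355. The numbers in the column names cross these letters for post-secretory B and C, and libraries with the same number correlated at 0.126 and 0.355. The deviations of 2 libraries from their mean are exact opposites, so these values are the former with the sign turned and add no separate result. With 2 pairs and no statement in the labels, neither was taken as a pairing.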

Additional observations from a re-analysis of the deposited data

Results flagged for a closer look

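The change from before to after secretion differed between J. procumbens and J. herrerae at 2835 loci, by limma's test of the difference (procumbens change minus herrerae change, adjusted p under 0.05). The list members with the most positive and most negative differences were looked at more closely. With all labelled libraries the difference passed only for BSMT1 (6.09, adjusted p = 0.00137) and FAMA (-3.10, adjusted p = 0.0383) among the 10. It was 4.12 for TPS24-terpene (0.265), 2.39 for CAT1 (0.604), 2.55 for BCA1 (0.661), 0.55 for PR4 (0.932), -4.25 for CYCB1;2 (0.106), -2.17 for SULTR2-1 (0.403), -4.81 for RPS15AA (0.0693) and -2.19 for CCOAOMT1 (0.302).

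TPS24-terpene, a terpene synthase row, differed by 6.79 (SE 1.51, adjusted p = 0.00617), with 521 and 553 TPM after and 7, 3 and 2 TPM before secretion in procumbens, against 20, 3 and 8 TPM after and 42, 3 and 2 TPM before in herrerae. CAT1 differed by 6.39, as described above. BSMT1 (AT3G11480), which makes the scent compounds methyl benzoate and methyl salicylate in Arabidopsis, differed by 5.72 (SE 0.72, adjusted p = 0.000194). It had 4 and 2 TPM after and 0, 2 and 0 TPM before secretion in procumbens, against 8, 6 and 1 TPM after and 45, 163 and 127 TPM before in herrerae.

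BCA1 differed by 5.68 (adjusted p = 0.0474), and this call was lost without any of 7 single libraries, among them procumbens post-secretory C (0.19). PR4 differed by 5.49 (SE 1.35, adjusted p = 0.0103, or 0.0629 without procumbens post-secretory B), with 64, 26 and 45 TPM after and 27, 1 and 4 TPM before secretion in herrerae.

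On the other side CYCB1;2 differed by -4.61, with procumbens lower and herrerae higher after secretion. SULTR2-1 was listed at 0 in the 6 herrerae libraries, so its difference of -4.17 (SE 0.45, adjusted p = 5.05e-05) is the procumbens change alone. No herrerae change could be measured, and libraries at 0 also lower the spread shared by all groups. RPS15AA (AT1G07770), a cytosolic ribosomal protein, differed by -4.14 (adjusted p = 0.0438), which rested on herrerae post-secretory C at 86 TPM beside 4 and 2 TPM in A and B, and the call was lost without that library (0.0569) and without any of 8 others. FAMA differed by -3.94 (adjusted p = 0.000261), being at most 1 TPM in herrerae, where a fall of that size could not be seen. CCOAOMT1 (AT4G34050), a methyltransferase of lignin synthesis, differed by -3.73 (SE 0.67, adjusted p = 0.00168), with 315 and 75 TPM after and 673, 512 and 276 TPM before secretion in procumbens, against 88, 52 and 137 TPM after and 10, 21 and 16 TPM before in herrerae.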

How the results depend on the processing

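No locus called in the comparison was called in the opposite direction under any alternative that was run. The choice of libraries moved the counts most. Of the 4331 loci called, 363 were list members, and the species difference held 2835. With all 23 libraries the counts were 354 loci, 34 list members and 299 differences after rescaling, and 123, 13 and 106 as deposited. Under all 23 libraries with array weights, whose estimation did not converge, they were 6779, 488 and 5763. The 5 compared libraries alone gave 2358 loci. Leaving out 1 of the 5 compared libraries gave 2675 to 4596 loci, 252 to 380 list members and 1288 to 3713 differences, each lowest without post-secretory B and highest without pre-secretory C. With the replicate block the species difference fell to 1416 loci by letter and 1803 by column number, and the comparison itself to 3292 and 3494. CWINV4 passed under the block by letter (-3.44, adjusted p = 0.0329), and BAM1 was at -0.05. Without rescaling 3229 loci were called, and the other scalings, filters and pseudocount gave 3740 to 4381.

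Named genes that had passed changed sign only with all 23 libraries, after rescaling and as deposited: SWEET9 to 0.16 and 0.34, CRC to 0.76 and 0.91, SUC2 to -0.33 and -0.12, GLN1.2 to 0.47 and 0.64, RBCS3B to -0.50 and -0.32, PRK to -0.34 and -0.06 and AP3 to 0.70 and 0.85. CHLH changed to -0.11 after rescaling only and CRT1 to 0.10 and P5CDH to 0.02 as deposited only. Of those that had not passed, CWINV4 changed to 2.75 and 2.88 and AT4G20860 to 1.45 and 1.62 with all 23. On leaving out 1 library CWINV4 ran up to 0.85 and AT4G20860 up to 0.82 (both without pre-secretory C), and BAM1 down to -0.05 (without pre-secretory B or D). The causes were not tested. Rounding to whole TPM limits genes of a few TPM, and with 2 libraries after secretion their spread was largely borrowed from the other groups.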

Other observations

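Further lists are set beside all loci, of which 18.8% rose and 14.3% fell. Cuticle genes had 5 of 20 higher and 1 lower in post-secretory J. procumbens nectary (25% and 5%, median 0.56). Heat shock genes had 4 of 18 higher (22.2%) and none lower (median 0.19). Of 16 fatty acid beta-oxidation genes 4 rose and 2 fell (25% and 12.5%). Of 11 redox genes 2 rose and 2 fell (18.2% each), and of 13 flavonoid and anthocyanin genes 1 rose and 1 fell (7.69% each). Circadian clock genes had 2 of 21 higher (9.52%) and none lower, and proton pumps 2 of 6 lower (33.3%) and none higher. The secondary wall list had 1 of 4 higher and 1 lower (25% each). Berberine bridge enzyme-like genes had 1 of 11 higher and 1 lower (9.09% each). Rows with mitochondrial identifiers had 2 of 44 higher and 8 lower (4.55% and 18.2%, median -0.27).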
